A study of Mus musculus with 24 samples.

Results

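The cytosolic ribosomal protein genes were taken as every symbol of the count tables that begins with Rpl or Rps followed by a protein number (and an optional closing letter, such as a, x or l), the stalk genes *Rplp0*, *Rplp1* and *Rplp2*, and *Rpsa*. Pseudogenes, mitochondrial ribosomal protein genes and the S6 kinases were left out. This rule gave 84 of 25793 gene symbols, 33 for the small and 51 for the large ribosomal subunit. They were followed in bulk RNA-seq of the cerebellum (CB) and hippocampus (HC) of 16GsoT/T mice, which are homozygous for a translocation with a breakpoint between *Galnt17* and *Auts2*, and of WT mice, at postnatal days 14 (P14) and 35 (P35). Each of the 8 groups of region, age and genotype held 3 libraries, 24 in all, and per the paper all were from males. The labels give C57BL/6 as the background of every sample, while most WT library names carry B6C3, and the paper places the translocation on a mixed C57BL/6 and C3H/He background with homozygous parents for the mutants. WT mice were therefore not littermates of the 16GsoT/T mice, and a difference in background cannot be told apart from the translocation.

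Ribosomal proteins assemble with ribosomal RNA in the nucleolus into a small subunit, which decodes the mRNA, and a large subunit, which forms the peptide bond. Each mature ribosome holds most of these proteins in a single copy, so they are made in near-equal numbers, and many of their mRNAs start with a run of pyrimidines (a TOP start) through which growth signals control their translation. In neurons, ribosomes also lie in dendrites and axons, where proteins are made away from the cell body.

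Per library, between 2563968 and 40564789 reads lay on genes, with the fewest in P35 HC. *Wbscr17*, the older symbol of *Galnt17*, served as a check of the labels and was lower in every 16GsoT/T library than in any WT library of the same region and age, with 18.2 to 22.1 CPM (counts scaled to a common library size) against 39.8 to 43.1 in P14 CB, 45.7 to 52.4 against 60.2 to 61.4 in P35 CB, 101 to 107 against 136 to 147 in P14 HC and 110 to 140 against 162 to 212 in P35 HC. The summed level of 9 cerebellar granule and Purkinje cell markers ran from 6970 to 9090 CPM in CB libraries and from 139 to 370 CPM in HC libraries, the highest HC value being that of the 16GsoT/T library B10. The P14 HC libraries of WT and of 16GsoT/T ran on separate lanes, and the genotype effect at that age and region cannot be told apart from the lane. Among the P35 HC libraries, W481 and W483, both WT, belong to another library set than N10, B10, B11 and B12. Regions and ages were made as separate library sets, so in any comparison of regions or ages the set cannot be told apart from the biology.

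Each genotype comparison was fitted over the 6 libraries of one region and age with edgeR's quasi-likelihood test, and a gene was called where its p, adjusted by Benjamini and Hochberg's method over all genes tested, was 0.05 or less. CPM values of a comparison are scaled by the TMM method over its libraries, and log2 fold changes are given with their standard error (SE). Marker sums, levels over the groups, levels per kb and the summed level of the members use CPM scaled over all 24 libraries instead. In these bulk samples fewer cells of a type and less RNA per cell cannot be told apart.

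Of the 84 genes, 80 passed the low-count filter in P35 CB. The other 4 were at or near 0 in every library. *Rpl10l*, a gene known from testis, had no count, *Rpl39l*, another testis paralog, at most 4 counts in a library, and *Rpl3l*, a muscle paralog, at most 14. *Rpl5* encodes an essential large-subunit protein that carries the 5S RNA, and yet it had at most 8 counts in a library and 41 in all 24. In NCBIM37 with GENCODE vM1, *Rpl5* lies on chromosome 5 from 108329521 to 108338024 on the plus strand and overlaps *Fam69a* and the small nucleolar RNA genes *SNORA66* and *Snord21*. The part of these overlaps in the low count was not tested, and no statement about *Rpl5* expression is made.

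The proteins are needed in near-equal numbers, but the read counts of their genes were not equal. Divided by exon length and averaged over the 24 libraries, the level was highest for *Rplp1* at 569 CPM per kb, followed by *Rpl4* at 317, *Rpl3* at 299 and *Rps15* at 286 CPM per kb. The lowest of the 80 members tested in P35 CB were *Rps4y2* at 14.4, *Rps27l* at 16.1 and *Rpl35a* at 20.6 CPM per kb. Exon length here counts every base in any annotated exon of a gene, so it can exceed the length of its mRNA. For *Rpl35a* it was 3526 bp, at a mean of 72.5 CPM over the 24 libraries. The part of these lengths in the order was not tested. *Rpl41* has no entry in that annotation and no level per length. In CPM, *Rpl4* and *Rpl3*, 2 core proteins of the large subunit, stood among the 3 highest members in every group, joined by *Rpl7* in both P14 CB groups, by *Rpl13a* in WT P35 CB, and by *Rpsa*, the small-subunit protein related to the laminin receptor, in the other 5 groups. Among the 80 members tested in P35 CB, *Rps4y2* and *Rps27l* were the 2 lowest in every group, between 8.94 and 19.1 CPM. *Rpl3l*, which passed the filter in P14 CB alone, had a mean of 0.255 CPM there in WT and 0.347 CPM in 16GsoT/T. The next lowest of the 80 was *Rpl29* in 5 groups, *Rpl22l1* in both P14 HC groups and *Rps28* in WT P35 CB. *Rps4y2* overlaps *Tmtc1*, so its reads are uncertain.

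The starts of the genes that the P35 CB result turns on are shown to let a reader compare those that rose most with those at the lower end. RefSeq (GRCm38.p6) start windows were matched by symbol for 62 of the 84 members. Each line gives 10 bases before and 20 bases from an annotated transcript start, on the strand of the gene, with the unbroken run of C and T that opens the transcript in capitals where it is a TOP start, defined here as a C followed by at least 4 further C or T. *Rps28*, *Rplp2*, *Rps15*, *Rpl37a* and *Rpl9* had 5 of the 6 largest rises in P35 CB (*Rpl21*, the other, is named only). *Rps15a*, *Rpl15* and *Rpl22*, the first of whose annotated starts is shown, had the 3 lowest fold changes there.
Rps28, chr17:33824543-33824572, minus: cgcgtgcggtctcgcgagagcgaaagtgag
Rplp2, chr7:141447641-141447670, plus: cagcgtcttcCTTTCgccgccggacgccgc
Rps15, chr10:80292421-80292450, plus: cagagctcgcgataactgcgcaagcgcagc
Rpl37a, chr1:72711250-72711279, plus: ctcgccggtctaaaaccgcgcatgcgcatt
Rpl9, chr5:65391412-65391441, minus: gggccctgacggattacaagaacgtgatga
Rps15a, chr7:118116128-118116157, minus: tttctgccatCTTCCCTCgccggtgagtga
Rpl15, chr14:18270967-18270996, minus: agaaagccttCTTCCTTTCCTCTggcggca
Rpl22, chr4:152324426-152324455, plus: cttctggaatgttccagctcccactgacag
Such a start was found at 13 of the 62 members (21%) and at 800 of 26963 other genes (2.97%), reading the gene's own strand only. Only a run that opens at the annotated start base was counted. An annotated start can lie some bases from the real one, and a window without a match can hold such a run elsewhere, as that of *Rpl22* does. A missing match therefore does not show that a gene lacks a TOP start. In P35 CB, 10 of the 13 members with a TOP start were called, with a median log2 fold change of 0.32 and a range from -0.17 to 0.52, and 31 of the 45 tested members with a window but no TOP start, with a median of 0.29 and a range from -0.07 to 0.53. Both *Rps15a* and *Rplp2*, near opposite ends of the order, had a TOP start.

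The share of all gene reads that fell on the 84 genes averaged between 0.883% and 1.04% in the CB groups and between 1.24% and 1.5% in the HC groups. In P35 CB it was 0.910%, 0.842% and 0.899% in the WT libraries M27, M28 and M29, and 1.09%, 0.996% and 0.999% in the 16GsoT/T libraries C19, C20 and C21. All 3 mutant libraries lay above all 3 WT libraries. The group means were 0.883% ± 0.0366 and 1.03% ± 0.055 (SD, n = 3 each). At P14, CB had 1.01% ± 0.0287 in WT and 1.04% ± 0.133 in 16GsoT/T, and HC 1.5% ± 0.109 and 1.44% ± 0.00581. In P35 HC the means were 1.24% ± 0.0253 and 1.31% ± 0.263, and the mutant libraries ran from B11 at 1.06% to B10 at 1.59%. Only in P35 CB did the genotypes not overlap. No p-value is given for this sum.

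**Figure D1:**
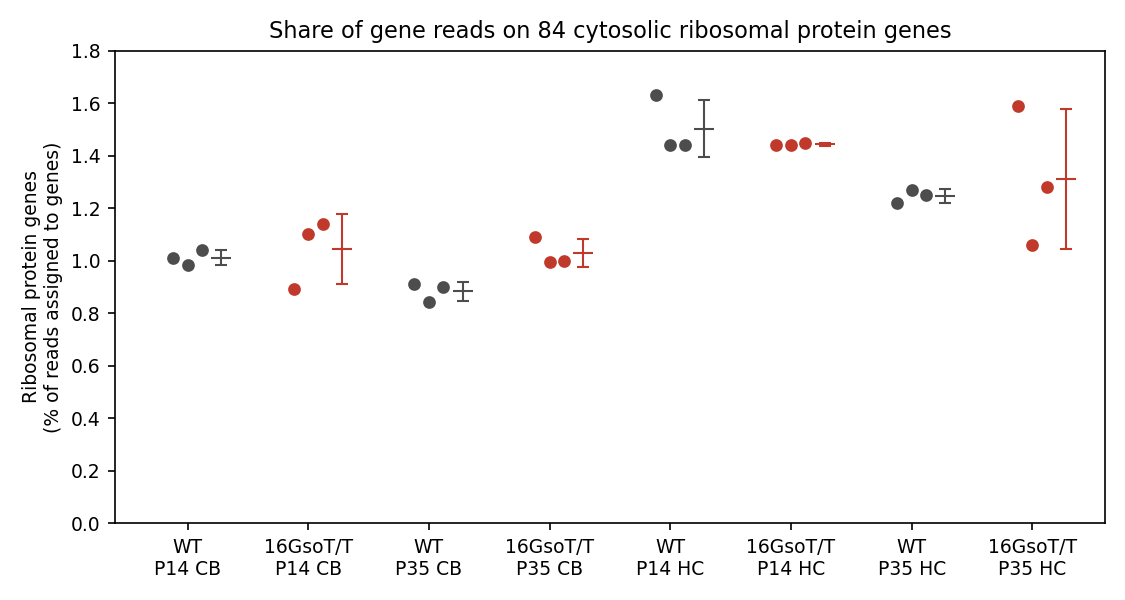
Share of reads assigned to genes that fell on the 84 ribosomal protein genes (y axis, %), by group (x axis). Points are libraries (WT grey, 16GsoT/T red) and the bar beside them is the mean ± SD of 3. WT P35 CB is lowest, at 0.883%, and the mutant P35 CB libraries lie above it, while in P35 HC the mutant libraries reach from 1.06% to 1.59%.

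In P35 CB, 57 of the 80 tested ribosomal protein genes were higher in 16GsoT/T than in WT and 0 were lower. Over all 14004 genes tested 17.4% were called higher and 18% lower. Both subunits took part, with 22 of 33 small-subunit and 35 of 47 large-subunit genes called, and median log2 fold changes of 0.28 and 0.30. Over all 80 the median was 0.30, with quartiles of 0.22 and 0.39 and a range from -0.17 to 0.53, against a median of -0.00 over all genes. The change was small for each gene. No member reached a fold change of 1.5, where 11.7% of all genes were called at that limit. For 58 members every 16GsoT/T library was above every WT library, which held for 23.4% of all genes, and for 1 member, *Rps15a*, every mutant library was below, which held for 23.9%.

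**Figure D2:**
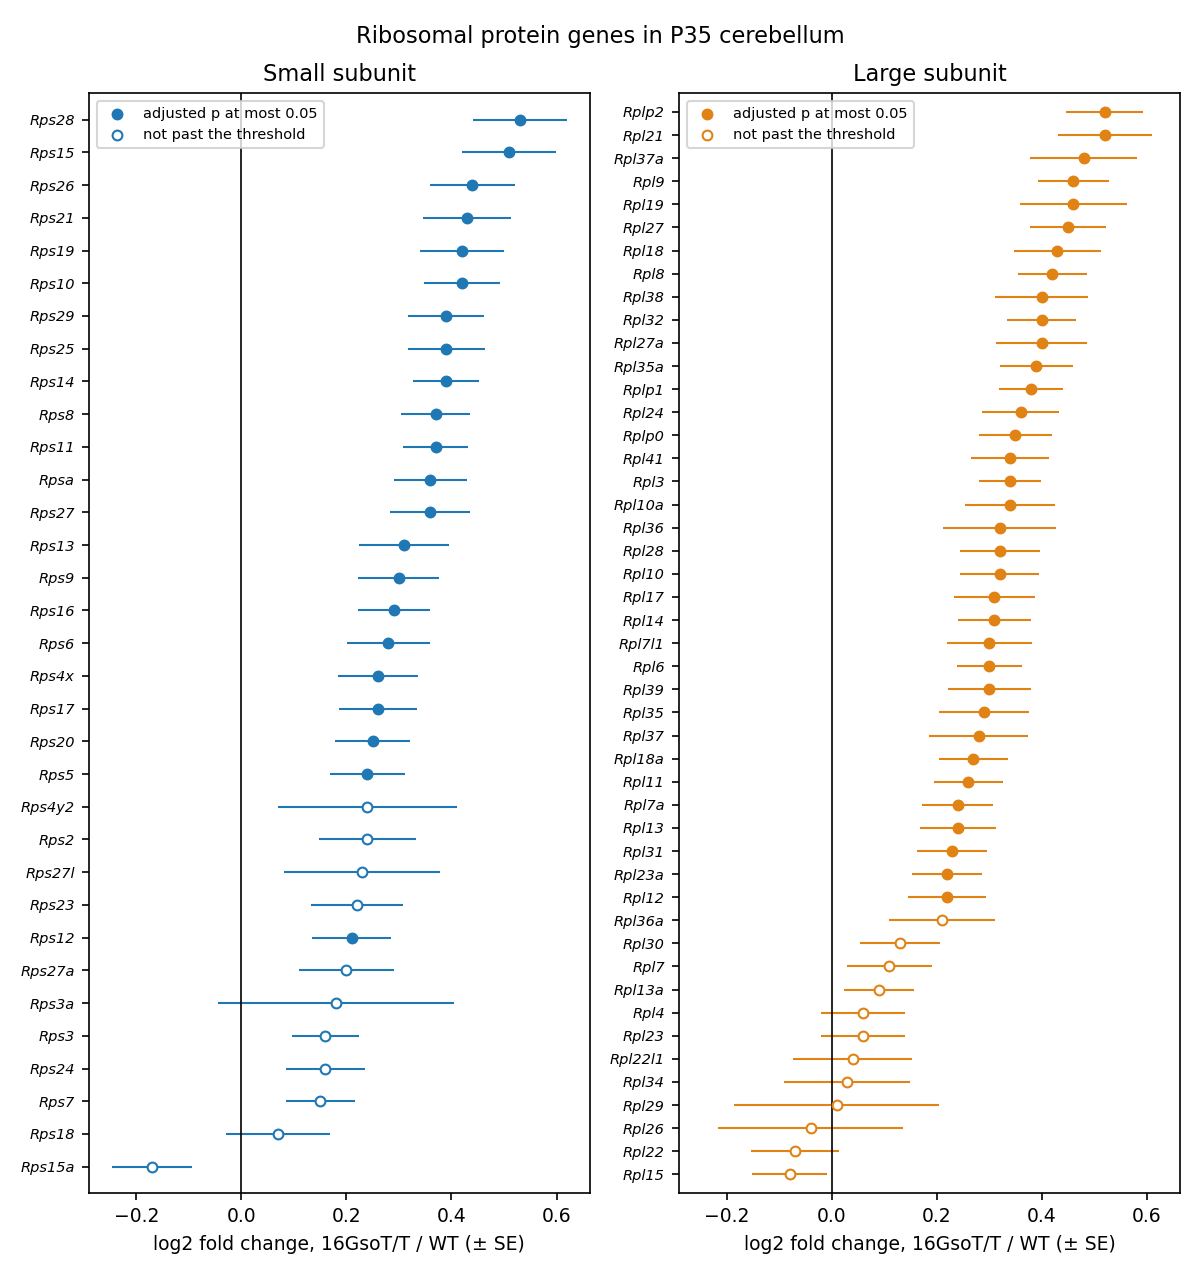
Log2 fold change of 16GsoT/T over WT in P35 CB (x axis, ± SE) for the 80 tested ribosomal protein genes, small subunit on the left and large subunit on the right, in order of the change. Filled points passed the adjusted p of 0.05 and open points did not. All 57 filled points lie to the right of 0, and the lowest point is the open one of *Rps15a* at -0.17.

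The ribosomal stalk recruits the GTPases that drive elongation, and all 3 of its genes rose in P35 CB. *Rplp2* read 69.5, 73.6 and 69.9 CPM in WT and 103, 94.9 and 109 CPM in 16GsoT/T. The mutant libraries stood clear of the WT libraries, with means of 71.0 ± 2.25 and 102 ± 6.92 (SD, n = 3), a log2 fold change of 0.52 (SE 0.0728, edgeR adjusted p = 0.000192). *Rplp1* rose from 167 ± 6.98 to 216 ± 8.97 CPM, by 0.38 on the log2 scale (SE 0.0612, edgeR adjusted p = 0.000569), and *Rplp0* from 162 ± 6.91 to 206 ± 17.2 CPM, by 0.35 (SE 0.0699, edgeR adjusted p = 0.00239). *Rplp2* lies on chromosome 7 of NCBIM37, from 148633269 to 148637484, plus strand, and holds the small nucleolar RNA gene *Snora52*.

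Among small-subunit genes, *Rps28* showed the largest rise. Its WT libraries read 32.8, 30.4 and 31.4 CPM and its 16GsoT/T libraries 48.9, 42.5 and 45.6 CPM. The groups did not overlap, and the log2 fold change was 0.53 (SE 0.0895, edgeR adjusted p = 0.0007). In NCBIM37 *Rps28* spans chromosome 17 from 33955972 to 33961507, minus strand, and overlaps *Kank3*, and since the strand option of the counting is not given, reads of the pair cannot be told apart with certainty. *Rps15*, whose protein is needed for export of the small subunit from the nucleus, read 109, 107 and 105 CPM in WT and 179, 138 and 143 CPM in mutants. C19 was the highest of the mutants, and all 3 were above WT, with a log2 fold change of 0.51 (SE 0.0897, edgeR adjusted p = 0.000979). *Rpsa* rose from 237 ± 15.7 to 303 ± 18.8 CPM (log2 fold change 0.36) and *Rps6*, the substrate of the S6 kinases, from 87 ± 6.94 to 105 ± 7.16 CPM (0.28, edgeR adjusted p = 0.0165).

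On the large subunit, *Rpl21* read 111, 105 and 111 CPM in WT and 183, 145 and 143 CPM in 16GsoT/T, a log2 fold change of 0.52 (SE 0.0897, edgeR adjusted p = 0.000828). *Rpl37a* rose from 58.8 ± 5.23 to 82.1 ± 10.9 CPM (0.48) and *Rpl9* from 171 ± 4.47 to 235 ± 18.8 CPM (0.46). In all 3 genes the mutant libraries lay above the WT libraries. *Rpl3*, which lines the peptidyl transferase centre, rose by 0.34 from 316, 288 and 304 CPM to 383, 384 and 383 CPM, with almost no spread among mutants. *Rpl4*, which reaches into the exit tunnel of the nascent peptide, was not called and overlapped, at 359, 315 and 376 CPM in WT and 396, 364 and 336 CPM in mutants.

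The paralogs and their parent genes did not share 1 pattern. *Rpl22* encodes a large-subunit protein that also binds other RNAs, and *Rpl22l1* its close paralog. Neither was called in P35 CB, at log2 fold changes of -0.07 (SE 0.0834) and 0.04 (SE 0.113), and both groups overlapped. *Rpl7l1*, a nucleolar paralog of *Rpl7*, rose by 0.30 (SE 0.0808, edgeR adjusted p = 0.0118), while *Rpl7* had 0.11 and was not called. *Rps27* rose by 0.36 (SE 0.0762, edgeR adjusted p = 0.00297), and *Rps27l*, at 9.7, 11.8 and 11.6 CPM in WT and 13.9, 13.3 and 11.7 CPM in mutants, had a log2 fold change of 0.23 (SE 0.149) and was not called. Whether a paralog and its parent differed was not tested.

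Altogether 23 tested members were not called in P35 CB, and 4 had a fold change below 0, *Rps15a*, *Rpl15*, *Rpl22* and *Rpl26*. These and the genes of the next paragraph other than *Rpl22* were picked after their values were seen. *Rps15a* read 158, 142 and 144 CPM in WT and 140, 137 and 118 CPM in 16GsoT/T, a log2 fold change of -0.17 (SE 0.0763, edgeR adjusted p = 0.102). *Rpl15* stood at 81.7 ± 4.21 and 77.3 ± 3.16 CPM. The smallest change called was 0.21, of *Rps12*. *Rps7* (0.15) and *Rps3* (0.16) were below it and *Rps2* (0.24, edgeR adjusted p = 0.0633) just above, all 3 not called.

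*Rps3a*, *Rpl26* and *Rpl29* missed it with a wide spread. *Rps3a* read 121, 107 and 119 CPM in WT P35 CB and 196, 78.8 and 120 CPM in the mutants, so that 1 mutant library was above and 1 below every WT library. *Rpl26* read 97, 97.8 and 108 CPM in WT and 140, 79 and 76.8 CPM in mutants. In some groups these 3 genes had the widest spread of all 80, in CPM scaled over all 24 libraries. In others they did not. *Rps3a* had ranks from 19 to 62 in the WT groups and 64 in 16GsoT/T P35 HC, *Rpl29* rank 68 in WT P14 HC and *Rpl26* rank 48 in WT P35 CB. In 16GsoT/T P14 CB their coefficients of variation were 76.8% for *Rpl29*, 42% for *Rps3a* and 26.1% for *Rpl26*, ranks 1, 2 and 3, against a median of 11.3%, and in 16GsoT/T P14 HC they were 75.4%, 37.9% and 27.5%, again ranks 1, 2 and 3, against 2.99%. *Rpl29* read 20.1, 6.95 and 41.9 CPM in the mutant P14 CB libraries 4, 5 and 6 and 56.5, 13.1 and 96.7 CPM in the mutant P14 HC libraries A13, A14 and A18. In WT P14, *Rpl29* stayed between 19.6 and 22.4 CPM in CB and between 55.2 and 62.5 CPM in HC. In P35 CB the order was the other way, since *Rpl29* had the widest spread of all 80 members in WT, at 26.2, 47.9 and 29.2 CPM (34.1%, rank 1), and 39.6, 29 and 38.6 CPM in 16GsoT/T (16.4%, rank 7). *Rpl26* differed among WT mice as well, with 68.8 CPM in 1 WT P14 CB library and 106 and 108 CPM in the others, and 84.7 CPM in N5 of WT P14 HC against 149 and 165 CPM. The labels do not say whether CB and HC libraries came from the same mice.

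**Figure D3:**
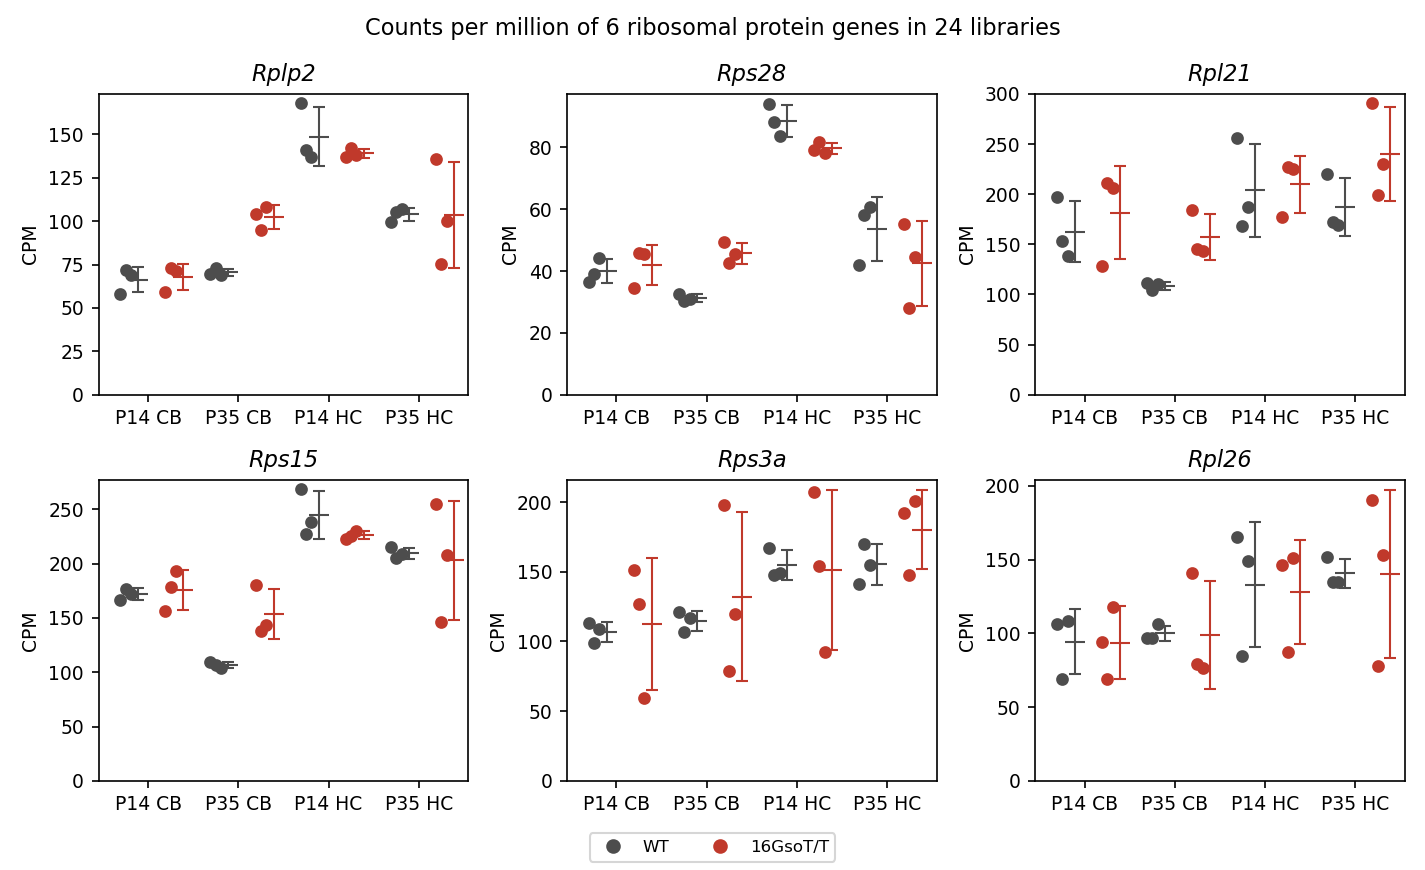
CPM scaled over all 24 libraries (y axis, from 0) of 6 ribosomal protein genes in the regions and ages on the x axis, with WT in grey and 16GsoT/T in red. Points are libraries and bars mean ± SD (n = 3). *Rplp2*, *Rps28*, *Rpl21* and *Rps15* separate the genotypes in P35 CB, where *Rps3a* and *Rpl26* spread on both sides of WT.

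Other measures moved with the P35 CB result. Reads on genes were 37.7% of all reads in WT and 42.3% in 16GsoT/T, and reads with several mapping positions 10.9% and 8.26%. Since ribosomal protein genes have many processed copies in the genome, reads that map to several places bear on their counts, and the part of this difference was not tested. As a share of all reads in the table instead of gene reads, the ratio of 16GsoT/T to WT was 1.31. Among genes that are not members, those with under 1000 bp of exon had a median log2 fold change of 0.11, with 83 of 424 higher and 51 lower. The members under 1000 bp had 19 of 27 called higher, and those of 2000 bp or more 17 of 25, with a median of 0.30. These lengths count all annotated exons of a gene, 4685 bp for *Rps19*, and can exceed the length of the mRNA. The classes therefore cannot show whether mRNA length had a part. Across genes that are not members, the log2 fold change had a correlation of 0.27 with mean log2 CPM, 0.203 with GC content (12397 genes) and -0.0316 with log2 exon length (12735 genes). Genes are not independent replicates, and the part of abundance and GC content in the members' result was not tested. All 4 endothelial markers were lower in mutants, at a summed level of 68 to 75.1 CPM against 146 to 151 CPM in WT, and choroid plexus markers ran from 14 to 2070 CPM in WT and from 123 to 358 CPM in mutants, with 1 of 5 called lower. Granule and Purkinje cell markers summed to between 7710 and 8530 CPM in WT and between 8200 and 9090 CPM in mutants, with 2 of 9 called higher and 1 lower. Red blood cell markers summed to 173 to 282 CPM in mutants and 117 to 167 CPM in WT, with 2 of 4 called higher and 1 lower, and hippocampal and telencephalic neuron markers to 45 to 51.2 CPM against 32.2 to 39.4 CPM, with 1 of 2 tested called higher. Neither sum overlapped between genotypes. Over all genes tested 17.4% were called higher and 18% lower. The part of these cells in the result was not tested.

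The P35 CB count held in most settings and dropped in some. All 57 genes kept a positive sign in each of the 12 refits, and 41 of them were called in every fit that left out 1 library, where the count ran from 42 without M28 to 56. With all 12 libraries of P35 in 1 fit, which pools the spread with that of HC, 32 members were called. For these refits the shares of all genes called are not given here.

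Other genes of the protein synthesis machinery were less uniform in P35 CB, where 17.4% of all genes were called higher and 18% lower. Of 8 genes for ribosome-associated or fused proteins, 4 were called higher and 0 lower, with a median log2 fold change of 0.24. *Fau*, which makes Rps30 fused to a ubiquitin-like protein, rose from 82.6 ± 4.02 to 111 ± 7.28 CPM (0.43), and *Gnb2l1*, the scaffold Rack1 of the small subunit, from 144 ± 1.12 to 175 ± 10.9 CPM (0.28, edgeR adjusted p = 0.00417). Of 38 initiation factor genes 15 were higher and 3 lower (median 0.19). The largest called changes were those of *Eif3c*, a core subunit of the initiation factor eIF3, at 0.49, *Eif5*, which acts in start site selection, at -0.48, and *Eif1* and *Eif3j* at 0.43 and -0.43. Of 14 elongation and termination genes 6 were higher and 2 lower. *Eef1a2*, the elongation factor isoform of neurons and muscle, rose from 787 ± 17.4 to 1430 ± 93.8 CPM, a log2 fold change of 0.87 (SE 0.061, edgeR adjusted p = 9.56e-07), more than any ribosomal protein gene, *Eef2*, the translocase, by 0.38 and *Eef1g* by 0.34.

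Of 78 genes of ribosome biogenesis 20 were higher and 6 lower in P35 CB, with a median of 0.08, where 17.4% of all genes were called higher and 18% lower. *Tcof1*, which acts in ribosomal RNA transcription, rose by 0.76, whereas *Taf1d*, a subunit of the RNA polymerase I selectivity factor, fell by 1.23 and *Nvl*, an ATPase of large-subunit assembly, fell by 0.82 on the log2 scale. Of 75 mitochondrial ribosomal protein genes, which serve the separate ribosome of that organelle, 15 were higher and 1 was lower (median 0.14), so that the share called higher, 20%, stood near the 17.4% of all genes. *Mrpl14* (0.65), *Mrpl34* (0.56) and *Mrpl49* (0.50) had the largest changes. The cytosolic members had a larger share called higher and a larger median than each of these 5 lists. Whether the lists differ was not tested, and all were chosen with results of these data known.

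In the other 3 genotype comparisons no ribosomal protein gene was called. In P14 CB 0 of 81 tested members were called by edgeR, with 2 at an unadjusted p under 0.05, where 0.506% of all genes were called, 0.0938% higher and 0.413% lower. By no overlap between genotypes, 1 member was higher and 0 were lower, against 6.48% and 7.17% of all genes. The log2 fold change was above 0 for 69 of the 81, with a median of 0.05 and a range from -0.35 to 0.48. *Rplp2* read 58, 71.5 and 68.7 CPM in WT and 59.1, 72.3 and 71 CPM in 16GsoT/T, an almost complete overlap, and *Rps15* 171 ± 5.49 and 175 ± 18.3 CPM. In P14 HC 0 of 80 were called and 5 were at an unadjusted p under 0.05, where 0.814% of all genes were called, 0.361% higher and 0.453% lower. There 71 of 80 lay below 0, with a median of -0.06, and 10 had every mutant library below every WT library, a pattern shown by 11.6% of all genes. *Rps28* was one of these 10, at 95.5, 90 and 85.7 CPM in WT and 81.1, 82.6 and 79.1 CPM in mutants, a log2 fold change of -0.16 (SE 0.0606, edgeR adjusted p = 0.223).

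In P35 HC 0 of 80 were called and 4 were at an unadjusted p under 0.05, where 0.135% of all genes were called, 0.112% higher and 0.0225% lower. The genotypes did not overlap for 1 member with higher and 1 with lower mutant values, against 6.12% and 6.95% of all genes. The members' median was 0.03, with 51 above and 29 below 0. The mutant libraries B10, B11 and B12 differed widely, so *Rplp2* read 135, 73.5 and 99 CPM in them and 96.8, 105 and 106 CPM in WT, and its log2 fold change was 0.01 (SE 0.17). B10 was the highest mutant library for 77 of the 80 members and B11 the lowest for 72. Without B10 the members' median was -0.13 and without B11 0.16. With library set as a covariate, which compares N10 alone with the 3 mutant libraries, it was 0.10. Choroid plexus markers moved with genotype here, with 4 of 5 called higher in the mutants, at a summed level of 1750, 351 and 1400 CPM in B10, B11 and B12 against 80.2 to 93.5 CPM in WT. Their part in the members' spread was not tested. DESeq2 called 0 members in these 3 comparisons too.

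**Figure D4:**
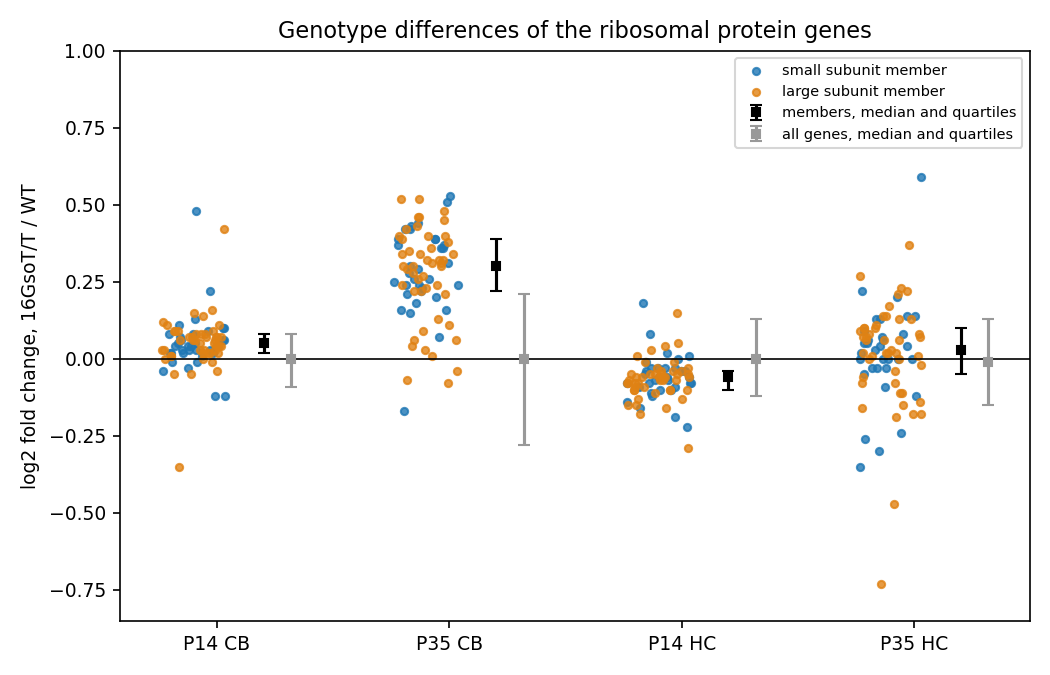
Log2 fold change of 16GsoT/T over WT (y axis) of each tested ribosomal protein gene (points, by subunit) in the 4 region and age comparisons (x axis). Squares with bars are median and quartiles, black for these genes and grey for all genes tested. The members' median is 0.30 in P35 CB and between -0.06 and 0.05 in the others.

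Within a group, the members tended to be high or low together. In WT P14 HC the library N4 was the highest for 80 of 80 members, in 16GsoT/T P14 CB the library 4 was the lowest for 75, and in 16GsoT/T P35 CB the library C19 was the highest for 63. In 16GsoT/T P35 HC, the group with the largest SD, such a shift was wider than the difference between genotypes in P35 CB. The summed level of the members was 15787 CPM in B10 and 10838 CPM in B11, the highest and lowest single libraries of that group. In P35 CB the group means were 10531 CPM in 16GsoT/T (SD 625) and 8616 CPM in WT (SD 332). The 57 genes called in P35 CB had, in the separate libraries of P14 CB, a fold change above 0 for 50 and below 0 for 5, with a median of 0.04. All tested members were much the same there, with 69 of 81 above 0 and a median of 0.05, against 8121 of 15993 genes. In P14 HC 51 of the 57 were below 0, as were 71 of all 80 members. In P35 HC 39 of the 57 were above and 16 below, against 51 and 29 of the 80. Since members shift together within a library, these counts of genes are not independent.

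Interaction terms asked whether the genotype effect differed between ages or regions. Between P14 and P35 in CB, 8 of 80 members had a larger effect at P35 and 0 a smaller one, where 7.81% of all genes were called in that direction, so the members' share of 10% stood near the background. Lower calls made up 10.8% of all genes. The members' median difference of log2 fold changes was 0.25, against -0.02 over all genes, and 74 of 80 were above 0. The largest were *Rplp2* at 0.49 (SE 0.136, edgeR adjusted p = 0.0219), *Rps15* at 0.47 (SE 0.132, edgeR adjusted p = 0.0216) and *Rps26* at 0.46 (SE 0.122, edgeR adjusted p = 0.016). *Rps28* had 0.46 (SE 0.163) and was not called. The count depended on single libraries. It was 16 without the mutant P14 CB library 6, 5 without C21, 4 without the WT P14 CB library 3, 3 without C19, M27 or M28 and 2 without M29. For these refits the shares of all genes called are not given here. P14 CB and P35 CB were separate library sets, and the set is a part of this difference that cannot be told apart from age.

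Between CB and HC at P35, 1 member, *Rps28*, had a larger effect in CB, by 0.83 (SE 0.247, edgeR adjusted p = 0.0433), where 9.61% of all genes were called, 4.5% in that direction and 5.1% in the other. Its log2 fold change was 0.53 in CB and -0.30 in HC. The members' median was 0.24, against 0.01 over all genes. Without B10 the count was 28 and without N10 it was 3. Without C21 the count was 1, a member other than *Rps28*. It was 0 when C19, C20, B11, B12, M27, M28, M29, W481 or W483 was left out. The shares of all genes called in these refits are not given here. No member differed between ages in HC or between regions at P14 by edgeR, where 0.00666% and 0% of all genes were called and 1 member each was at an unadjusted p under 0.05. DESeq2 called 0 members in these as well.

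In WT mice, ribosomal protein genes were lower in CB than in HC at both ages. At P14, 63 of 80 were lower in CB, where 38.4% of all genes were, and 1, *Rpl7l1*, was higher, where 38.8% were. The members' median log2 difference of CB minus HC was -0.53. Among genes that are not members, those with under 1000 bp of exon had a median of -0.52, with 56.6% lower and 18.1% higher. Those of 2000 bp or more had 0.09, with 35% lower and 42.9% higher. Across genes that are not members, the difference had a correlation of -0.339 with GC content. The regions did not overlap for 65 members lower in CB and 1 higher, against 39.5% and 40.3% of all genes. At P35, 75 of 80 were lower, where 28.5% of all genes were, and 0 higher, where 27.5% were. The members' median was -0.58, and 75 did not overlap, against 31.3% of all genes. Genes with under 1000 bp of exon that are not members had a median of -0.09 at P35, with 26.3% lower. Their correlation with GC content, over all lengths, was -0.0255. The part of exon length and GC content in these region differences was not tested. *Rplp1* read 531, 436 and 464 CPM in HC and 108, 111 and 124 CPM in CB at P14, a log2 difference of -2.06 (SE 0.0924, edgeR adjusted p = 1.69e-08). At P35 it read 346, 389 and 393 CPM in HC and 170, 160 and 157 CPM in CB, a difference of -1.21 (SE 0.0808). *Rps2*, which lies at the entry of the mRNA channel, differed by -1.60 at P14 and -1.31 at P35, and *Rpsa* by -1.07 and -0.91. The groups of these 3 genes did not overlap at either age.

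The paralogs differed among themselves between regions. *Rpl7l1* read 59.5, 56.3 and 60.1 CPM in CB and 53.1, 49.9 and 47.9 CPM in HC at P14 (0.22, edgeR adjusted p = 0.013) and averaged 50.7 and 52.5 CPM at P35 (-0.05, not called), and its parent *Rpl7* had 0.11, not called, and -0.31, called. *Rps27l* had -0.02 at P14 and 0.08 at P35, while its parent *Rps27* had -0.47 and -0.91. *Rpl22l1* had -0.34, not called, at P14 and -0.41, called, at P35, and *Rpl22*, called at both ages, had -0.36 and -0.31. Reads on genes made up 65.9% of WT P14 CB libraries and 41.3% of WT P14 HC libraries, but 37.7% and 40% at P35. The WT P35 CB libraries also enter the genotype comparison of P35 CB, so the 2 results share them.

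**Figure D5:**
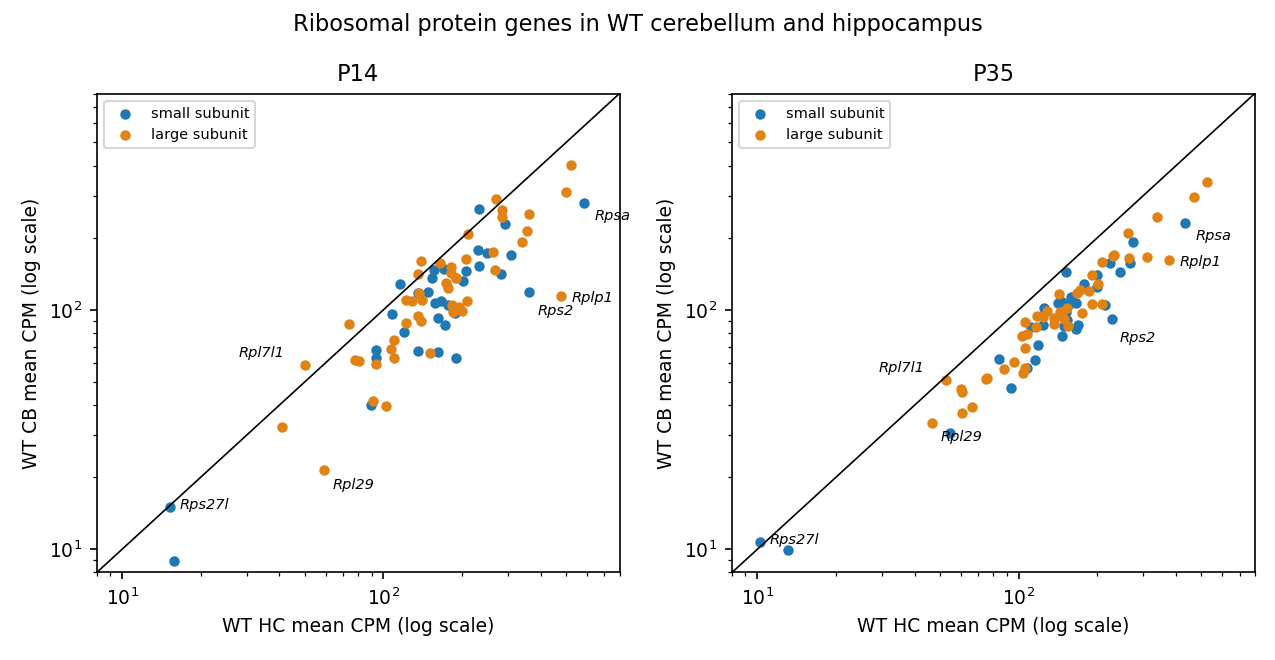
Mean CPM of each tested ribosomal protein gene in WT HC (x axis, log scale) and WT CB (y axis, log scale) at P14 (left) and P35 (right), n = 3 libraries a group, coloured by subunit. The line marks equal CPM. Most points lie below it, with *Rplp1*, *Rps2* and *Rpl29* far from it at P14 and *Rpl7l1* and *Rps27l* close to it.

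From P14 to P35 in WT mice, the members shifted downward on balance in both regions. In CB 42 of 80 were lower at P35, where 30.9% of all genes were, and 13 were higher, where 32.2% were, with a median log2 difference of P35 minus P14 of -0.19. The ages did not overlap for 43 members lower at P35 and 13 higher, against 33.6% and 34.1% of all genes. *Rps26* read 125, 136 and 126 CPM at P14 and 51.4, 49.1 and 45.8 CPM at P35, a difference of -1.40 (SE 0.0707, edgeR adjusted p = 3.32e-10). *Rpl35* fell from 88 ± 13.3 to 38.6 ± 2.63 CPM. In the other direction, *Rplp1* rose from 108, 112 and 125 CPM to 176, 166 and 163 CPM, by 0.55 (SE 0.0658, edgeR adjusted p = 4.28e-06), while its partner *Rplp0* fell by 0.63 and *Rplp2* had 0.11 and was not called.

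In HC 27 of 80 were lower at P35, where 12.2% of all genes were, and 1 was higher, where 12.6% were. The members' median was -0.22. By no overlap between ages, 42 were lower at P35 and 2 higher, against 21.1% and 20.9% of all genes. Among genes that are not members, those with under 1000 bp of exon had a median of -0.23, with 25.4% lower and 2.56% higher. In CB such genes had a median of 0.18. Across genes that are not members, the correlation with GC content was -0.387 in HC and 0.295 in CB. The part of exon length and GC content was not tested. *Rplp0* read 407, 334 and 329 CPM at P14 and 210, 198 and 197 CPM at P35, a difference of -0.82 (SE 0.1, edgeR adjusted p = 0.000712). *Rps28* fell by 0.75 and *Rplp1* by 0.38. The 1 that rose was *Rpl22l1*, from 43, 40.7 and 37.8 CPM to 49.5, 63 and 63.8 CPM (0.53, SE 0.117, edgeR adjusted p = 0.00961), and it rose by 0.54 in CB as well, whereas *Rpl22* fell by 0.17 in CB and was not called in HC at -0.30. Without N4, the library that was highest for every member, 17 members were called in HC in place of 28, and without W481 18. For these refits the shares of all genes called are not given here.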

How the data were processed

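Bulk RNA-seq covered 2 brain regions, 2 ages and 2 genotypes, with 3 mice a group. The authors mapped reads with TopHat2 2.0.8 to NCBIM37, counted them per gene with HTSeq 0.6.1, and deposited raw counts without normalization, one table per age. The paper names a KAPA stranded kit and the labels a TruSeq stranded kit. The annotation and strand option are not given in the sources used here. Replicates are separate mice.

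Counts were fitted in R 4.3.3 with edgeR 4.0.16 (TMM scaling, filterByExpr at 10 counts per library and 15 in total, quasi-likelihood test, Benjamini-Hochberg adjustment over all genes tested) in 6 libraries per comparison and in 12 per interaction. CPM, and CPM per kb of GENCODE vM1 exon, counting every base in any annotated exon of a gene, were computed from the same counts. The members and all gene lists were chosen with earlier results of these data known. The genes named in the text are, per genotype comparison, the 6 called members with the largest rise and fall (3 for interactions), the 3 highest and 3 lowest per group, *Rplp0*, *Rplp1*, *Rplp2*, *Rpsa*, *Rps6*, the paralogs with their parents, *Fau*, *Gnb2l1* and the 3 most changed called genes of each other list, and other names were chosen after their values were seen, those of the WT comparisons included. Alternatives were DESeq2 1.42.0, its size factors, TMM without the members, other filters, 1 fit per age, library set as a covariate in P35 HC, and leaving out each library. With 3 mice against 3, an exact permutation test cannot go below p = 0.1. Fits were tested on simulated data. One gene that the naming rule covers is not reported here.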

Additional observations from a re-analysis of the deposited data

Results flagged for a closer look

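For 8 of 80 members the effect of 16GsoT/T in CB differed between P14 and P35 in the test of the interaction over 12 libraries. This share of 10% stood near the background, since 7.81% of all genes were called in that direction and 10.8% in the other. The effect was larger at P35 by 0.49 on the log2 scale for *Rplp2*, 0.47 for *Rps15*, 0.46 for *Rps26*, 0.39 for *Rpl35a*, 0.37 for *Rpl38*, 0.37 for *Rpl18*, 0.36 for *Rps25* and 0.33 for *Rpl8*, with edgeR adjusted p-values from 0.016 to 0.0493. For each, the log2 difference was above 0 in all 17 fits made, and 1 of the 8 was called in every fit that left out 1 library.

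Between regions at P35, 1.25% of the 80 members were called with a larger effect in CB. Over all genes 4.5% were called in that direction and 5.1% in the other. For *Rps28*, the 1 member called, the CB effect was larger by 0.83 on the log2 scale (edgeR adjusted p = 0.0433). Its mutant HC libraries read 55.1, 27.2 and 43.8 CPM and its WT HC libraries 40.7, 57.7 and 60.4 CPM, so the HC groups overlapped. Without B10 or without N10 it was called, and without any of the other 10 libraries it was not.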

How the results depend on the processing

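In P35 CB the 57 called members became 52 with DESeq2, 57 with its size factors, 57 with TMM factors set without the members, 59 with no filter, 56 with at least 10 counts in every library, 32 in 1 fit of all 12 libraries and 0 with a fold change of at least 1.5. The members' share of all reads gave a ratio of 1.31. The interaction with age in CB, 8 members, gave 19 with DESeq2, 13 with size factors, 20 with no filter and 2 to 16 without 1 library, and that with region at P35, 1 member, gave 7, 5 and 9, then 2 with at least 10 counts and 0 to 28 without 1 library. Without 1 library the members' median interaction ran from -0.08 to 0.23 for age in HC, 0.05 to 0.21 for region at P14 and 0.14 to 0.41 for region at P35. With no filter the WT medians were -0.53 for region at P35 and -0.24 for age in CB. For age in WT HC, 28 members became 17 to 27, the lowest without N4 and the next, 18, without W481. Apart from the fold limit, the shares of all genes called at these other settings are not given here. These counts therefore cannot be set against a background. Some log2 values near 0 changed sign without 1 library. In P14 CB *Rplp2* ran from -0.05 to 0.12 and *Rps15* from -0.04 to 0.11, in P14 HC *Rpl21* from -0.09 to 0.23, in P35 CB *Rpl22l1* from -0.08 to 0.12 and *Rpl22* from -0.14 to 0.02, and in P35 HC *Rplp2* from -0.23 to 0.19 and *Rps15* from -0.23 to 0.15. For age in WT, *Rpl3* in CB ran from -0.10 to 0.00, and in HC *Rpl4* from -0.07 to 0.02 and *Rpl7l1* from -0.01 to 0.07. The cause of these changes was not tested.

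No paired analysis was possible because the groups compared share no replicate numbers. The P35 HC libraries, with the fewest reads, had the largest biological coefficient of variation of the 4 genotype comparisons, 0.125 against 0.0749 to 0.103. The members' median SE was 0.142 there and 0.0759 in P35 CB.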

Other observations

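The other lists of the protein synthesis machinery were also read in WT mice, where region and age cannot be told apart from library set. Of 75 mitochondrial ribosomal protein genes, 40 were lower and 17 higher in CB than in HC at P14 (53.3% and 22.7%, against 38.4% and 38.8% of all genes). At P35 17 were lower and 2 higher (22.7% and 2.67%, against 28.5% and 27.5%), so the share that was lower stood under that of all genes. From P14 to P35 in CB, 25 of these 75 rose (33.3%) and 16 fell (21.3%), where 32.2% and 30.9% of all genes did. In HC 1 rose and 10 fell (13.3%), where 12.6% and 12.2% of all genes did, so the shares that rose in CB and fell in HC stood near the background. Of 38 initiation factor genes, 17 fell (44.7%) and 6 rose (15.8%) from P14 to P35 in CB, and 8 fell (21.1%) and 2 rose (5.26%) in HC. Of 8 genes for ribosome-associated or fused proteins, 6 fell and 1 rose in CB, and 5 fell and 0 rose in HC.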
